A study of Homo sapiens with 4 samples.

Results

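The study applied m6A-seq to RPMI-8226, an established cell line from human multiple myeloma. An antibody against N6-methyladenosine (m6A) was used to pull down poly(A) RNA, and the pulled-down RNA was sequenced beside its input. The cells carried a lentiviral short hairpin RNA, either shNC or shALKBH5, the latter named for the demethylase ALKBH5. Each condition had 1 immunoprecipitated (IP) library and 1 input library, 4 libraries in all, and the authors deposited 1 peak list per condition. The described peaks were chosen by identity: chromosome, start, end, strand, block sizes and Ensembl gene had to be equal in both lists. This gave 2816 pairs of peaks in 2535 genes out of 47074 rows. They made up 12.54% of the 22448 shNC peaks (exact 95% binomial interval 12.11 to 12.98) and 11.44% of the 24626 shALKBH5 peaks (11.04 to 11.84). Such pairs allow the fold of IP over input to be compared over exactly the same bases of RNA. Each value rests on 1 list per condition, so no fold has a replicate, no test between conditions was possible, and the numbers below describe these libraries.

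m6A is laid down on messenger RNA by a methyltransferase complex built around METTL3 and METTL14, with WTAP, VIRMA, ZC3H13 and other partners. It can be removed by the demethylases ALKBH5 and FTO, and it is read by proteins such as the YTHDF family, which steer the translation and decay of the RNA. The mark is known to gather near stop codons, in long internal exons and in last exons, mostly within the motif DRACH, of which GGAC is the commonest core. Antibodies against m6A also bind m6Am, a related base that can follow the cap at the first position of a transcript.

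The members with sequence in the RefSeq tables of GRCh38.p14 lay at microRNA genes and at gene starts. Of the 2816 pairs, 6 covered a whole microRNA hairpin gene, base for base. Their mature microRNAs are shown because the peaks carry the microRNAs' names, with the seed (bases 2 to 8) in capitals.
hsa-miR-1182: gAGGGUCUugggagggaugugac
hsa-miR-1199-3p: uGCGGCCGgugcucaaccugc
hsa-miR-1199-5p: cCUGAGCCcgggccgcgcag
hsa-miR-3652: cGGCUGGAggugugagga
hsa-miR-671-3p: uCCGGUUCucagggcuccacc
hsa-miR-671-5p: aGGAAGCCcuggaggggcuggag
hsa-miR-762: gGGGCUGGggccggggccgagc
hsa-miR-922: gCAGCAGAgaauaggacuacguc

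No seed was shared between these mature microRNAs. GGAC stood on the transcribed strand in 3 of the 6 hairpins, each time as GGACU. The sites of 30 bases with GGAC in capitals are shown, since GGAC was the motif searched for inside these peaks.
MIR1182 chr1:231019895-231019924, minus strand: gGGACuugucacugccugucuccucccucu
MIR3652 chr12:103930476-103930505, plus strand: cugcgaucgaaggGGACuugagacucaccg
MIR922 chr3:197674535-197674564, minus strand: cucucccuguccuGGACuggggucagacug
MIR922 chr3:197674496-197674525, minus strand: gagaagcagcagagaauaGGACuacgucau

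Among 756 RefSeq hairpins of 81 to 131 bases, the range of these 6, GGAC was in 29.23% and GGACU in 10.05%. On the opposite strand GGAC was in 5 of the 6 hairpins, against 28.7% of the 756. A match is a description of letters and does not mark a methylated base.

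The MIR1182 peak stood at 6.87 (shNC) and then 13.7 (shALKBH5), just under the ratio of 2 used below. MIR3652 had 2.68 and 3.98, MIR762 had 3.0 and 4.46, and MIR671 had 4.51 and 5.51. MIR1199 stood at 9.42 and 10.9, and MIR922 was the member of the 6 with the lower fold under shALKBH5, 4.1 and 3.24. All 6 ratios were therefore less than 2 times apart. Each hairpin lay under a peak of a longer gene in both lists, so reads of the microRNA precursor and of the longer RNA cannot be told apart. MIR3652 sits in HSP90B1, which encodes a chaperone of the endoplasmic reticulum, and the overlapping HSP90B1 peak had folds of 2.97 and 11.8. MIR1199 sits in MISP3, whose overlapping peak had 9.04 and 24.4. MIR1182 overlapped a FAM89A peak with 7.53 and 7.68, and MIR922 overlapped a RUBCN peak with 20.6 and 19.9. MIR671 overlapped a CHPF2 peak with 2.27 and 4.2, and MIR762 overlapped a BCL7C peak on the opposite strand with 3.16 and 4.65. In each list 7 hairpin genes had a peak. The seventh, MIR7844, had different starts in the lists and folds of 2.79 and 7.69.

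Peaks classed as start by their 5' edge gave the other printed sequences. The search covered 28 start pairs. They were YBX1, WDR53 and LEMD3, described below, and the named loci past 2-fold with log10 p below -10 in both lists, except PPP2R2A. Of the 28, 19 had RefSeq letters inside the peak and 8 of those held GGAC. Sites of 30 bases are shown for these 8, with GGAC in capitals.
EFNB1 chrX:68829017-68829046, plus strand: gtctatgcgagctGGACagcagtgggaggt
CUL1 chr7:148698686-148698715, plus strand: gctcccccgccccGGACgccgatggcggtg
ACAP3 chr1:1307881-1307910, minus strand: cgaggcggcgcgggcgGGACgagcggtccg
OGFR chr20:62804849-62804878, plus strand: cgccgccgagcatGGACgaccccgactgcg
DAZAP1 chr19:1407569-1407598, plus strand: cgcggcggcgcggGGACgcgcggtgaccgt
YBX1 chr1:42682438-42682467, plus strand: tagcgggagcggagagcGGACcccagagag
ABI1 chr10:26860909-26860938, minus strand: ggtgctcggagcctcggcGGACcttgctgc
IL2RG chrX:71111578-71111607, minus strand: ggtagtgggtgagGGACccaggttcctgac

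The first 5 belong to peaks with a fold at least 2 times higher in the shALKBH5 list, YBX1 to a peak with close folds, and ABI1 and IL2RG to peaks at least 2 times lower. GGAC was thus present in pairs of each kind. Over all member pairs that covered the 50 bases from the gene start in a RefSeq window, 43 of 179 (24.02%) held GGAC there, against 88 of 412 (21.36%) of the overlapping pairs with other borders and 18.89% of all RefSeq windows. On the opposite strand the shares were 12.29%, 17.96% and 17.59%. The printed sites were searched in all RefSeq letters inside a peak, so these shares are no matched background for them. Not every printed site lies just inside the RefSeq gene start. The IL2RG site lies wholly upstream of its gene start at 71111577 on the minus strand. In DAZAP1 the GGAC lies just upstream of the gene start at 1407586. The CUL1 site lies well inside its gene, which starts at 148697756.

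Most members had close folds. The fold ratio of shALKBH5 over shNC had a median of 0.0119 on the log2 scale, a linear ratio of 1.01. The middle 50% of pairs lay between -0.30 and 0.31, and the outer percentiles 5 and 95 were -0.95 and 0.97. Median folds of the members were 6.58 for shNC and 6.47 for shALKBH5, beside 6.54 and 6.64 over the whole lists. The ratio was above 1 in 1425 pairs, below 1 in 1376 and exactly 1 in 15. The 2 folds stood within 1.25 times of each other in 1465 pairs (52.02%), against 40.48% of the overlapping pairs with other borders described next.

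The folds were at least 2 times higher in the shALKBH5 list in 134 pairs (4.76%, interval 4.0 to 5.61), and at least 2 times lower in 130 (4.62%, 3.87 to 5.46). Over all 17364 overlapping pairs in which each peak met no other peak of the same gene and strand (1-to-1 pairs), the same limits were passed by 8.53% upward and 8.1% downward. Identical borders and folds come from the same reads, so this difference is a description and carries no test. The 14623 1-to-1 pairs with other borders had a median log2 ratio of 0.0141 and an interquartile range of 0.83, against 0.61 for the members. Both directions were thus about equally frequent among the members.

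**Figure D1:**
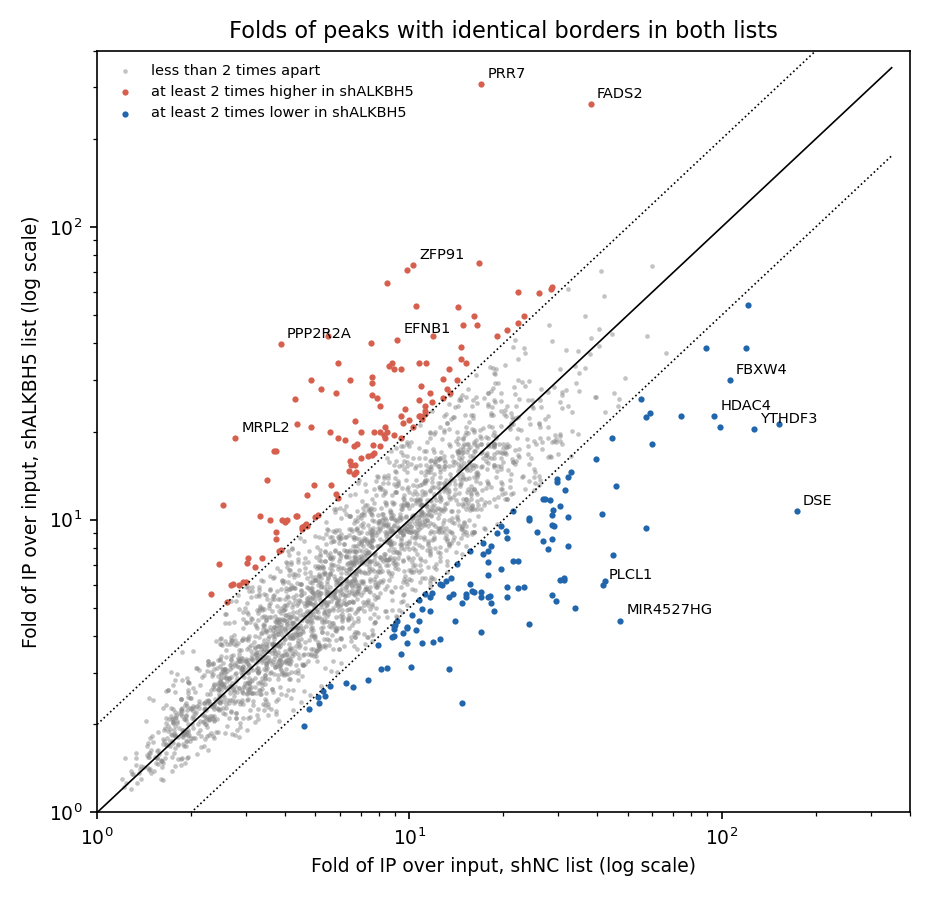
Fold of IP over input for each of the 2816 pairs, shNC list on the horizontal and shALKBH5 list on the vertical axis (both log scales). The solid line marks equal folds and the dotted lines a ratio of 2 either way; 134 pairs (red) lie on or above the upper line and 130 (blue) on or below the lower line.

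Just outside the rule stood 3127 unspliced pairs that differed by 1 step of 30 bases at a single border. Their median log2 ratio was 0.00, their interquartile range 0.68, and 6.01% were at least 2 times higher and 6.52% at least 2 times lower. The 2021 unspliced members of the 1-to-1 set had a median of 0.01, a range of 0.58, and shares of 4.35% and 4.65%. Borders came on a grid: of 11494 unspliced 1-to-1 pairs with other borders, 97.12% had both borders apart by a multiple of 30 bases, to within 1 base. Spliced pairs were not examined for this step. Of all 1-to-1 pairs, 37.55% had an equal start and 37.74% an equal end. Both borders, the blocks and the gene were equal in 15.79% (interval 15.25 to 16.34). These counts cover 2741 members, since 75 lay outside the 1-to-1 set.

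Members were strong peaks. Their median log10 p in the authors' deposited tables was -45.5 (shNC list) and -48.9 (shALKBH5 list), against -18.9 and -21.1 for the pairs with other borders. The share of 1-to-1 pairs with identical borders was 26.0% where the weaker log10 p of the pair lay below -100. It was 22.17%, 16.77%, 15.45% and 9.92% in the next bins and 6.81% above -5. The share thus fell from each bin to the next weaker one. The interquartile range of the log2 fold ratio was 0.46 in the strongest members and 0.84 in the weakest. In the strongest bin 3.26% of members and 3.0% of other pairs had folds at least 2 times apart. In the weakest bin these shares were 17.06% and 30.93%. Among the strongest pairs the members thus had no smaller share past 2-fold than the other pairs, and in each weaker bin they had a smaller one. Depth was not given, and its part in these spreads was not tested.

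**Figure D2:**
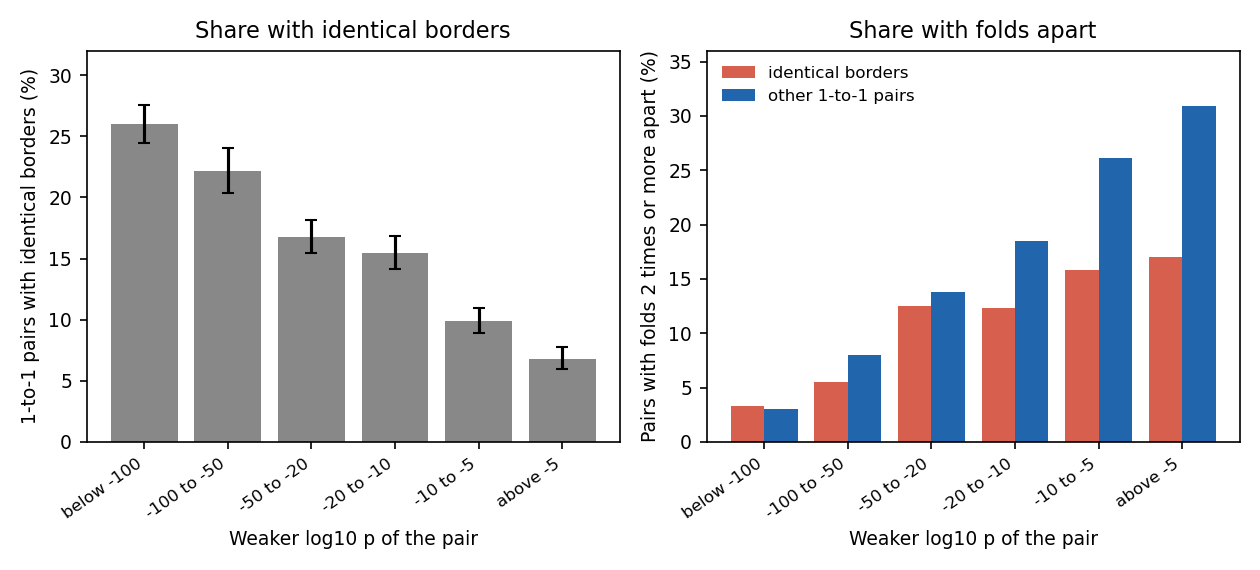
Pairs binned by the weaker log10 p of the pair (horizontal axes). Left, percent of 1-to-1 pairs with identical borders, with exact 95% binomial intervals, from 26.0% to 6.81%; right, percent of pairs with folds at least 2 times apart, members in red (3.26% to 17.06%) and other 1-to-1 pairs in blue (3.0% to 30.93%).

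The members had a median of 300 bases in their blocks, the same as the other pairs, and ranged from 81 to 2340. A base was shared with another peak of the same list in 619 members (21.98%), so those rows are not separate stretches of RNA. Spliced peaks, with more than 1 block, were 740 of the 2816 (26.28%, interval 24.66 to 27.95), against 17.13% of the other pairs. Of these, 644 had 2 blocks, 78 had 3 and 16 had 4. The longest member was in RBM12B, an RNA-binding protein gene, with 2340 bases and folds of 17.1 and 15.3. P2RY8, a receptor of B cells, had 2185 bases with 17.8 and 15.6, and P2RX7, an ATP-gated channel, had 2069 bases with 11.7 and 15.2. ARID1B, a subunit of the BAF chromatin remodeler, had 2010 bases with 14.6 and 15.1. These 4 long peaks stayed within 1.3 times of equal folds. The most blocks, 6, stood in TICAM1, the adaptor TRIF of Toll-like receptor signalling, with folds of 3.24 and 4.92. WDR53 and LEMD3, an inner nuclear membrane protein, had 4 blocks each, with 21.5 and 15.7, and 12.9 and 20.0.

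The 8 strongest named members, ranked by the weaker log10 p, had mostly close folds. The leading pair was MT-ATP8, a mitochondrial ATP synthase subunit, at 6.63 (shNC) and 3.71 (shALKBH5). MT-ATP8 overlaps MT-ATP6 on the mitochondrial genome, so reads of the 2 genes cannot be told apart. SLC7A5, the amino acid transporter LAT1, had 12.4 and 16.1, and IGFBP3, a binding protein of insulin-like growth factors, had 9.12 and 8.8. The YBX1 start peak, whose site is printed above, had 6.76 and 6.46. SEC61A1, the channel of the endoplasmic reticulum translocon, had 9.85 and 11.4. HSPA5, the chaperone BiP, had 6.52 and 5.98, ARPC5L of the Arp2/3 complex 9.34 and 10.0, and ACTB 3.54 and 2.86. MT-ATP8 was the one of these 8 with folds more than 1.5 times apart.

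Over those with at least 100 1-to-1 pairs, the share of 1-to-1 pairs with identical borders ran from 11.19% on chromosome 20 to 18.19% on chromosome 3. The median log2 ratio of the members ran from -0.07 on chromosome 17 (192 pairs) to 0.17 on chromosome 22 (63 pairs).

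Some members combined high and equal folds. With both folds at least 10, the 6 nearest pairs had the same printed value in both lists. CABLES1, a cyclin-dependent kinase partner, stood at 16.9. FZR1, an activator of the anaphase-promoting complex, and ZBED1 stood at 12.9. ZNF516 had 11.3, VIRMA, the scaffold of the m6A writer complex, had 10.4, and ZNF614 had 10.2.

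Of the 2270 members with log10 p below -10 in both lists, 92 were at least 2 times higher and 83 lower. From the strongest bin down to -10, the shares past 2-fold either way were 3.26%, 5.5%, 12.55% and 12.36% of members. Among other 1-to-1 pairs they were 3.0%, 8.01%, 13.8% and 18.49%. The highest and lowest ratios were ranked among those of the 2270 members in named loci. This leaves out clone-named loci with ratios as large, such as AC067751.1 with 8.47 and 64.2 and AC005306.1 with 42.4 and 6.16. PRR7, a transmembrane adaptor protein gene, went from 17.0 in shNC to 308 in shALKBH5, 18.1 times higher (chr5:177455991-177456286, ending at the RefSeq gene end). PPP2R2A, a regulatory subunit of protein phosphatase PP2A, had 3.87 and 39.8 in a peak at its gene start that was not searched for sequence. ZFP91, a zinc finger ubiquitin ligase, had 10.3 and 74.2, also at the start. FADS2, a desaturase of fatty acid synthesis, had 38.0 and 263 within the gene (chr11:61828065-61828485). These 4 pairs had the highest ratios among the named loci, and 2 of them lay at gene starts.

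Lower down, MRPL2 of the mitochondrial ribosome had 2.77 and 19.0, and SLC25A28, the mitochondrial iron importer mitoferrin-2, had 5.92 and 34.4. FAM120AOS had 5.2 and 28, and NETO1, an auxiliary subunit of kainate receptors, had 7.54 and 40.3. ZC3H18, which links the cap-binding complex to RNA decay, had 10.5 and 53.6 over 3 blocks. EFNB1, the ligand ephrin-B1, had 9.15 and 41.2 over its start (chrX:68828997-68829266). PLEKHM2, an adaptor for lysosome transport, had 3.49 and 13.7. NBPF1 had 8.81 and 34.4, but it belongs to a family of near-identical copies, so its reads may be shared among them. In these pairs log10 p did not always move with the fold. For FADS2 it was -124 in shNC and -118 in shALKBH5, and for PPP2R2A -18.6 and -14.3.

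The largest downward ratio was in DSE, an epimerase of dermatan sulfate synthesis, with 174 for shNC and 10.7 for shALKBH5, 16.3 times lower (chr6:116259238-116279500, 2 blocks). MIR4527HG, a microRNA host transcript, had 47.3 and 4.52, and PLCL1, a phospholipase C-like protein, had 41.6 and 5.97. YTHDF3, a cytoplasmic m6A reader, had 127 and 20.4 over 1676 bases in 2 blocks (chr8:63186162-63188826). Its log10 p was -239 and -254, so the weaker fold came with the smaller p. A second YTHDF3 pair had 14.7 and 11.3. The 2 pairs of this gene thus differed in size of the ratio and had the same sign.

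KIAA1024 had 45 and 7.59, and HDAC4, a class II histone deacetylase, had 94.6 and 22.6 with log10 p of -28.9 and -30.0. OTUD3, a deubiquitinase, had 32.1 and 8.1. LINC01229 had 22.3 and 5.86, again with the smaller p in shALKBH5 (-72.0 and -82.4). FBXW4, an F-box protein, had 106 and 29.9 at its gene start. FOXM1, a transcription factor of the cell cycle, had 45.9 and 13, ZNF524 had 18.3 and 5.2, and GARS-DT, a divergent transcript beside GARS1, had 59.8 and 18.1. These 12 pairs were picked by the ratio, so their high shNC folds follow in part from that choice.

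**Figure D3:**
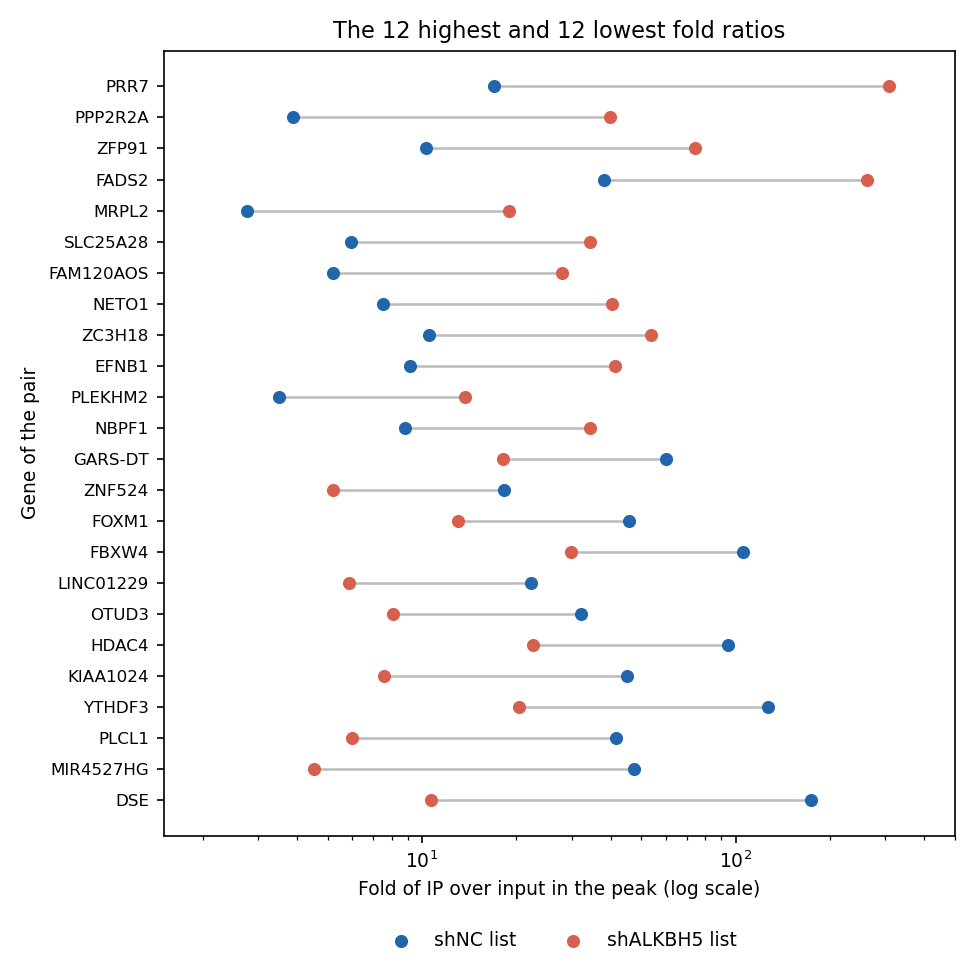
Folds of IP over input (log scale), shNC in blue and shALKBH5 in red, for the 12 highest and 12 lowest ratios among named loci with log10 p below -10 in both lists. Each line joins the 2 values of a pair; PRR7 at the top runs from 17.0 to 308 and DSE at the bottom from 174 to 10.7.

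Fold and p moved the same way in most members and disagreed in direction in a minority. The fold was higher and the p smaller under shALKBH5 in 1133 members, and the fold lower and the p larger in 960. In 285 the fold was higher with a larger p, in 405 it was lower with a smaller p, and in 33 one of them was equal. The p was smaller in the shALKBH5 list in 1543 members (54.79%, interval 52.93 to 56.64). Among the 264 pairs past 2-fold, 44 went opposite ways, 18 of the 134 higher and 26 of the 130 lower. Read numbers behind the folds were not used here, so the part of depth or RNA level in this was not tested.

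Position in the gene was not used by the rule. RefSeq spans placed 2501 members (88.81%), and transcript models were not used, so exon, intron and UTR are not given. A peak counted as start when its 5' edge lay upstream of the gene start or less than 500 bases into the gene, and otherwise as end when its 3' edge lay less than 1000 bases before the gene end or anywhere past it. Of the placed members 365 were at the start (14.59%, interval 13.23 to 16.04), 1434 in the middle (57.34%) and 702 at the end (28.07%). The other 1-to-1 pairs had 10.86%, 66.56% and 22.58%. Identical borders were found in 19.81% of 1-to-1 pairs at the start, 13.93% in the middle and 18.72% at the end. Where an edge was exactly the RefSeq gene end, 110 of 265 pairs (41.51%, interval 35.51 to 47.7) were identical, and at the gene start 29 of 70 (41.43%, 29.77 to 53.83). The 6 microRNA hairpin members had edges at both gene borders and counted as start members.

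Start members leaned upward. Their median log2 ratio was 0.10 (95% interval of the median 0.05 to 0.19), against -0.01 (-0.04 to 0.02) in the middle and 0.03 (-0.01 to 0.06) at the end. Of the 365, 34 (9.32%, 6.54 to 12.8) were at least 2 times higher and 13 (3.56%, 1.91 to 6.01) at least 2 times lower. Middle members had 57 higher and 68 lower, and end members 26 and 21. The start pairs with other borders had a median of 0.22, with 17.98% higher and 10.54% lower, so the upward lean was also present outside the identical pairs. Intervals treat peaks as independent and cover counting error only.

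Start members were weaker peaks, with a median weaker log10 p of -16.2 against -43.45 in the middle and -68.85 at the end. Within bins of strength the median log2 ratio of start members was -0.04 below -100 (61 pairs) and -0.04 between -100 and -50 (32 pairs). It was 0.16, 0.19 and 0.15 in the next 3 bins (73, 88 and 64 pairs) and 0.07 above -5 (47 pairs). Middle and end members together had -0.02, 0.04, -0.01, 0.02, 0.02 and 0.00 in the same bins. Start members in both strongest bins thus had medians slightly below 0.

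**Figure D4:**
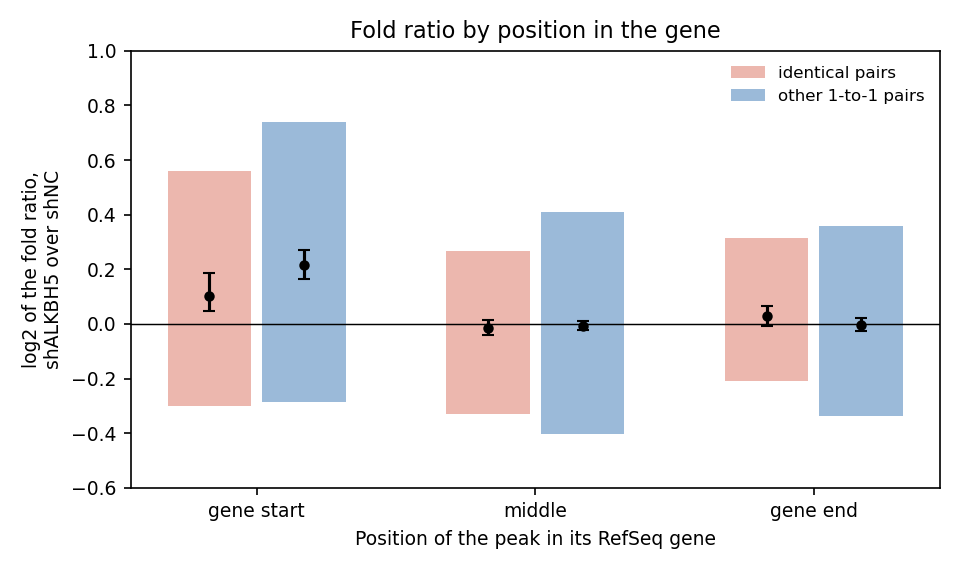
Log2 of the fold ratio (shALKBH5 over shNC) by position in the RefSeq gene, for members (red) and other 1-to-1 pairs (blue). Boxes span the quartiles, points are medians and bars their 95% intervals; start members have a median of 0.10 and other start pairs 0.22, while middle and end medians lie between -0.01 and 0.03.

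Among 239 start members with log10 p below -10 in both lists and a named locus, 19 were at least 2 times higher and 7 at least 2 times lower. These 26 pairs were chosen after their values were seen. Without the limits on p and locus name, 9.32% of start members were at least 2 times higher and 3.56% lower. Start pairs with other borders had 17.98% and 10.54%. Besides PPP2R2A, ZFP91, MRPL2 and EFNB1, CUL1, the scaffold of SCF ubiquitin ligases, had folds of 14.8 and 46.1 over 4 blocks. SMARCC1, a core subunit of BAF remodelers, had 13.4 and 32.6, and BAZ1B, a remodeler subunit and kinase, had 3.32 and 10.3. OGFR, the opioid growth factor receptor, had 8.06 and 17.9, DAZAP1, an RNA-binding protein, 3.36 and 7.38, and WDR77 of the PRMT5 methylosome 2.94 and 6.15. HPDL had 4.06 and 9.95, SZRD1 5.92 and 19.0, ACAP3 4.68 and 12.1, FOXC1 12.8 and 30.3, FMNL2 3.89 and 7.88, and STARD7-AS1 2.72 and 6.05. SART3, a factor of spliceosome recycling, had 3.05 and 7.39 in one peak and 3.01 and 7.11 in another that shares bases with it. Not every member pair of SART3 was at least 2 times higher. ZFP91-CNTF, with 14.3 and 53.4, is the read-through gene over the ZFP91 start, so these rows share bases too. Below FBXW4, the lower start pairs were LINC01016 with 17.8 and 6.46, IL2RG, the common cytokine receptor gamma chain, with 8.92 and 4.01, and JRKL with 29.7 and 13.8. ABI1, an actin regulator, had 11.6 and 5.43, EXOC8 of the exocyst 11.8 and 5.64, and SH3GL1, endophilin-A2, 19.6 and 9.55.

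Pairs of 1 gene share its RNA, yet their ratios often differed. Most genes, 2276, had 1 pair, while 240 had 2, 16 had 3 and 3 had 4. In 122 of the 240 genes with 2 pairs (50.83%, interval 44.32 to 57.32) both ratios lay on the same side of 1, and the 2 log2 ratios differed by a median of 0.51. Over all members 50.6% of ratios lay above 1, and the interquartile range of the log2 ratio was 0.61. Whether pairs of 1 gene were closer than pairs of different genes was not tested. DEGS1, the dihydroceramide desaturase, had 3.21 and 3.66 at its start, 5.18 and 6.82 and then 1.61 and 1.5 in the middle, and 8.29 and 8.48 at its end. AFAP1-AS1, a long noncoding RNA, had 10.4 and 10.1, 3.46 and 2.41, 1.65 and 1.54, and 3.02 and 1.91. EXOC7, an exocyst subunit, had 10.7 and 8.2, 8.68 and 8.31, 1.85 and 1.52, and 3.07 and 2.58, and its first 2 peaks share bases. In DEGS1 and AFAP1-AS1 the 4 folds had the same order in both lists, and in EXOC7 only its overlapping peaks changed places. SLC26A2, a sulfate transporter, was the 1 gene with several pairs that were all at least 2 times higher, 7.58 and 29.2, and 4.35 and 10.3, and it was named after its values were seen. No gene had every pair of several at least 2 times lower, and none had pairs past 2-fold in opposite directions.

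Pathway lists were read by counts against the 4.76% and 4.62% of all members. The m6A machinery had 8 genes with 10 member pairs among its 22 genes with a peak. Of these pairs 1 was at least 2 times higher, ZC3H13, a writer complex subunit, with 7.36 and 16.5, and 1 was lower, the YTHDF3 pair above. IGF2BP2, an m6A reader that binds target RNAs, had 9.38 and 8.69, and VIRMA had a second pair with 6.62 and 7.12. The median log2 ratio was 0.11 over the 10 member pairs and 0.03 over all 49 1-to-1 pairs of the list. ALKBH5 and TRAF1 had no member pair, and the peak lists carry no expression level, so the knockdown was not checked here.

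MAPK signalling, which relays growth factor and cytokine signals, had 17 pairs in 13 genes. MAPK3, the kinase ERK1, had 9.81 and 71.5 in a start peak with a log10 p of only -7.32 in shNC. SOS2, a Ras exchange factor, had 6.66 and 17.8. No pair was 2 times lower: MAP3K4 stood at 38.2 and 41.8, and SOS1 at 26.5 and 17.5 in one of its pairs. The median log2 ratio was 0.19 over the 17 member pairs and 0.01 over all 68 1-to-1 pairs of the list. TNF receptor and NF-kB signalling had 12 pairs in 11 genes, a median of -0.17 (-0.13 over its 61 1-to-1 pairs) and 1 pair past the limit. This was TANK, a TRAF-binding regulator, with 16.9 and 5.43 at its end, while its other pair had 15.4 and 12.7. TNFRSF13B, the plasma cell receptor TACI, had 30.7 and 18.1, TRAF6 16.4 and 17.7, and TNFRSF1B 13 and 13.2.

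Genes for endoplasmic reticulum function and the unfolded protein response, on which antibody-secreting cells depend, had 11 pairs in 10 genes, none 2 times higher. Their ratios were above 1 in 7 pairs and below 1 in 4. The median log2 ratio was 0.18 over the member pairs and -0.08 over all 47 1-to-1 pairs of the list. EDEM1, which directs misfolded glycoproteins to degradation, had 20.5 and 5.43 and was the 1 pair 2 times lower. This peak had 91 bases and a log10 p of -11.8 in shNC and only -6.78 in shALKBH5. PPP1R15B, a phosphatase subunit acting on eIF2 alpha, had 11 and 12.5, and SYVN1, the ubiquitin ligase HRD1, had 9.27 and 7.73. Apoptosis genes had 14 pairs in 10 genes, with BMF, a BH3-only protein, at 22.2 and 59.9 as the 1 pair past the limit. BCL2 stood at 30.9 and 27.4, FAS at 9.17 and 9.42, and TNFRSF10B, a TRAIL receptor, at 8.61 and 8.92.

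Plasma cell and myeloma genes had 12 pairs in 11 genes, of which 3 were at least 2 times lower and 0 higher. POU2AF1, a B-cell coactivator, had 15.6 and 7.79, PRDM1, the plasma cell regulator BLIMP1, 11.2 and 5.58, and DIS3, an exosome nuclease mutated in myeloma, 6.61 and 2.68. A second DIS3 pair had 4.06 and 4.39. POU2AF1 and PRDM1 lay just past the limit, at -1.002 and -1.005 on the log2 scale. IRF4, a myeloma survival factor, had 11.6 and 14.5, and NSD2, a histone methyltransferase, had 13.2 and 11.4. The median was 0.00 over the member pairs and -0.01 over the 48 1-to-1 pairs of the list. Of the lists for other cells, 3 T and NK cell genes, 4 myeloid genes and 3 stromal genes had a peak, and none had a member pair. A peak list holds no RNA level, so this is no measure of the cell types present.

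Chromatin regulators had 27 pairs in 20 genes, 3 at least 2 times lower and 0 higher. Besides HDAC4 these were ARID2, a subunit of the PBAF remodeler, with 9.51 and 4.1, and KMT2C, a histone H3 lysine methyltransferase, with 7.37 and 2.83. A second KMT2C pair went the other way, with 6.24 and 8.71. CREBBP, an acetyltransferase, stood at 19.6 and 25.4, and the median was -0.02 over the member pairs and 0.03 over the 196 1-to-1 pairs. The 7 cell cycle pairs had no ratio past 2-fold, with CDC25A at 11.7 and 16.0, E2F3 at 14.3 and 10.7 and WEE1 at 9.03 and 14.6. None of the 13 pairs of RNA helicase and decay genes passed it, with DCP2, the decapping enzyme, at 34.2 and 29.3 and TNRC6B at 13.1 and 23.0. The 11 pairs of ubiquitin-specific proteases, 3 of ribosomal proteins and 4 of housekeeping genes also stayed within 2-fold. USP38 was at 26.2 and 13.7, RPL37 at 7.56 and 4.2 and TUBA1B at 1.46 and 2.46.

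The lists with most pairs were ZNF genes and noncoding RNAs. ZNF genes, most of which encode DNA-binding repressors, had 85 pairs in 76 genes, 4 higher and 4 lower, with a median of 0.00 (-0.06 over 826 1-to-1 pairs). ZNF12 had 19.0 and 42.3 and ZNF8 28.1 and 11.7, while ZNF589 had 57.5 and 42.5. Long noncoding and antisense RNAs had 76 pairs in 69 genes, 6 higher and 8 lower, with a median of -0.15 (-0.11 over 531 1-to-1 pairs) and 48 ratios below 1 against 28 above. TMEM51-AS1 had 31.2 and 6.23, PAX8-AS1 33.9 and 4.98 and ATE1-AS1 24.1 and 4.41. Their log10 p was -16.6 and -9.54, -9.24 and -4.57, and -6.87 and -4.9, so none was below -10 in both lists. A second and stronger PAX8-AS1 pair had close folds, 14.5 and 13.8. LINC01614 had 6.47 and 29.9 with a log10 p of only -4.66 and -9.66, and IQCH-AS1 stayed at 40.4 and 44.8. Strand keeping in the libraries was not given in the sources used here, and antisense RNAs and the genes across from them cannot be told apart. Immunoglobulin genes had 3 pairs, with IGHG3 at 10.8 and 22.6 and IGHG1 at 8.77 and 11.5, and these gene copies are near-identical.

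**Figure D5:**
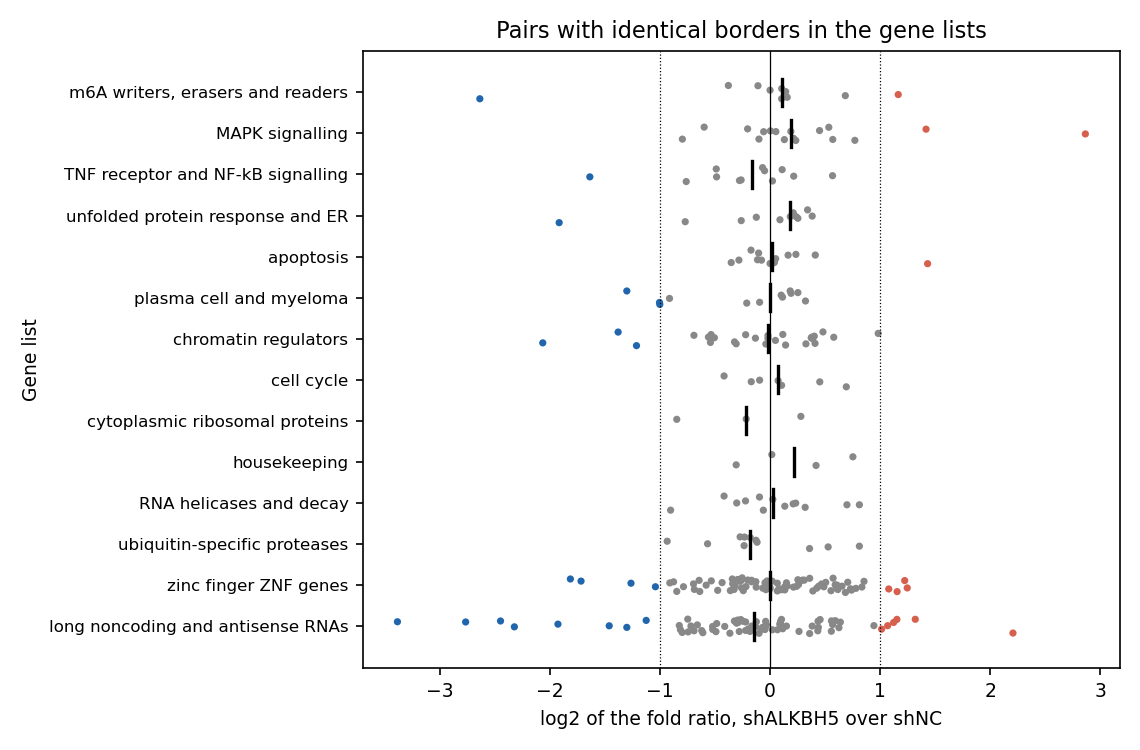
Log2 of the fold ratio (shALKBH5 over shNC) of each member pair in 14 gene lists, 1 point per pair, with the median as a black bar and dotted lines at a ratio of 2 either way. Red points are at least 2 times higher and blue points at least 2 times lower; list medians lie between -0.22 and 0.22.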

How the data were processed

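Poly(A) RNA of RPMI-8226 cells gave 1 IP and 1 input library per condition, per the labels' protocols. HOMER 4.9.1, BWA 0.7.12, fastp 0.19.11 and the build hg38 are listed in the submitters' processing notes. The peak caller, its settings and the scaling of IP, input and conditions were not given in the sources used here. Per the file headers, the fold is the authors' ratio of IP over input in a peak. The authors' log10 p was read as a score with no fixed range, and the deposited column named score holds the p-value. No read counts were used here, so depth is unknown. A member without a number for log10 p counted as strongest.

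Pairs were joined on chromosome, start, end, strand, block sizes and gene with pandas 2.3.3 under Python 3.11.15, beside SciPy 1.17.1, numpy 2.4.6 and matplotlib 3.10.9 for plots. The join, overlaps and placement were checked on simulated lists. Gene starts and ends came from RefSeq spans of GRCh38.p14, matched by symbol. Shares have exact (Clopper-Pearson) 95% intervals over peaks, which are not replicates; intervals of medians use order statistics. With 1 list per condition there is no test.

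The members and gene lists were chosen with earlier results of these data known. The rule for names took the 12 highest and 12 lowest ratios with log10 p below -10 in both lists, the 8 strongest pairs, the 4 longest and the 3 with most blocks. It also took the genes with most pairs (4 asked for, 3 taken because of ties), YTHDF3, the 6 closest pairs with folds of at least 10, and up to 4 members per gene list. These rankings skipped immunoglobulin genes, pseudogenes and unnamed loci. Members past 2-fold in the gene lists, start pairs, microRNA hairpins, the 30-base step, the 1.25-fold limit and the strength bins were chosen after values were seen. Alternatives changed the identity rule, overlap, strength, scaling, fold limits and the start distance. Some named members of the gene lists are not reported here.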

Additional observations from a re-analysis of the deposited data

How the results depend on the processing

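With borders allowed to differ by 30 bases there were 9220 pairs, 41.07% of the shNC and 37.44% of the shALKBH5 list, with 564 at least 2 times higher, 548 lower and 11.46% of placed pairs at a gene start. Without pairs that share a base with another peak, the shares of the lists were 9.79% and 8.92%. With log10 p below -10 in both lists they were 10.11% and 9.22%, with 83 pairs lower and 12.43% at a start. A limit of 1.5 times gave 367 higher and 355 lower pairs, and a limit of 3 times gave 44 and 46. A start distance of 200 bases gave 12.04%. These shifts follow from wider or narrower rules. The remaining alternatives kept counts within 1.5 times, and the median log2 ratio lay between -0.0017 and 0.0119, so its sign has no weight. No paired analysis was possible because each condition had 1 IP and 1 input library. No replicate could be left out for the same reason, and without read numbers the precision of a single fold is unknown.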
